A study of Mus musculus with 24 samples.

Results

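The 10 genes described here are those a mouse fat depot uses to make heat or to burn fatty acids: Ucp1, Cidea, Elovl3, Dio2, Ppargc1a, Cox8b, Cox7a1, Cpt1b, Ppara and Prdm16. They were found by symbol among the 55487 genes of the deposited table of whole mammary gland RNA, which held all 10, and all 10 were among the 19325 genes tested. The table covered 24 libraries in 8 groups of 3 mice, and every mouse carried an inducible transgene and its activator, so no group was free of them. Mice of the Esr1 line had the genotype MMTV-rtTA/tet-op-Esr1, with the oestrogen receptor alpha gene as the induced gene. Mice of the CYP19A1 line had the genotype MMTV-rtTA/tet-op-CYP19A1, with the gene of aromatase, the enzyme that makes oestrogens from androgens. In both lines the rtTA activator sat behind the MMTV promoter, which is active mainly in mammary epithelium. Each line was sampled at an age of 18 months, when induction had lasted 6 months, and at 20 months, when it had lasted 8 months. It was also sampled at 20 months after 2 months with a pellet under the skin, which released 25 mg of tamoxifen, a modulator of the oestrogen receptor, or 2.5 mg of letrozole, an aromatase inhibitor, over 60 days. The labels name no drug for the other 20-month mice, called untreated here, although their labels carry an unexplained tag, PLA. The labels of the 18-month mice lack this tag. They carry instead a tag with Doxy, presumably for doxycycline, that the 20-month labels lack. The 18-month mice also had the shorter induction, so age, induction time and what the tags mark cannot be told apart. Values are TPM, a length-corrected share of all transcripts of a library scaled to a fixed sum, given with the SD over mice.

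Brown and beige fat cells burn fatty acids to make heat. Ucp1, a channel-like carrier of the inner mitochondrial membrane, lets protons flow back without making ATP, and white fat pads, the mammary pad of mice among them, can hold scattered beige cells that use it. Several genes of this programme are not private to fat. Cox8b and Cox7a1 code for subunits of cytochrome c oxidase made in heart and skeletal muscle as well as in brown fat, and Cpt1b codes for the form of carnitine palmitoyltransferase that brings fatty acids into mitochondria in the same tissues. Ppargc1a and Ppara, regulators of mitochondrial and fatty acid genes, are also active in muscle. A piece of gland taken with underlying muscle therefore holds both sources, and bulk RNA cannot tell fewer cells of a type from less RNA per cell.

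Muscle RNA differed widely between libraries. A skeletal muscle score, the mean log2(TPM + 1) of 18 fibre genes outside the 10, was 7.13 to 10.1 in 22 libraries. It was 2.98 in replicate 1 of the Esr1 line at 18 months and 1.21 in replicate 3 of the CYP19A1 line at 18 months, called the muscle-poor libraries here. Acta1, skeletal muscle actin, stood at 38.3 and 6.51 TPM in these, and at 853 to 7085 TPM elsewhere. Replicate 2 of the untreated Esr1 line at 20 months also stood apart. Ribosomal RNA models took 31.2% of its TPM, against a median of 0.0634% over the 24 libraries, and Adipoq, the adipocyte hormone adiponectin, stood at 111 TPM there against 196 to 1102 TPM in the others. Where leaving out the last of these, or both muscle-poor libraries, ended a call or moved it by more than 1.5 times, the value without them is given. Libraries listed 14410 to 17684 genes at 1 TPM or more.

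Ucp1 was the most uneven of the 10 genes. It ran from 0 to 149 TPM over the 24 mice, with a median of 4.94 TPM and 15 libraries at 1 TPM or more. At 18 months the Esr1 line had 0.40, 0.10 and 1.62 TPM, and the CYP19A1 line 11.6, 0.10 and 0.48 TPM. At 20 months untreated they had 1.25, 3.66 and 24.25 TPM, and 79.5, 8.36 and 9.99 TPM. Mice of 1 group thus differed from each other as much as groups did, and the ranges of both lines overlapped at each age. With tamoxifen, the Esr1 line had 15.3, 9.84 and 6.21 TPM and the CYP19A1 line 52.9, 149 and 0.39 TPM. With letrozole, the Esr1 line had 0.09, 15.2 and 0 TPM, and the CYP19A1 line 0.06, 0.78 and 6.65 TPM. The highest group mean was 67.4 ± 75.4 TPM (SD, n = 3) in the CYP19A1 line with tamoxifen, followed by 32.6 ± 40.6 TPM in that line at 20 months untreated, and in each the SD exceeded the mean. The remaining means, from 0.707 ± 0.805 TPM in the Esr1 line at 18 months to 10.5 ± 4.59 TPM in the Esr1 line with tamoxifen, did not separate from their neighbours in this order beyond that spread.

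**Figure D1:**
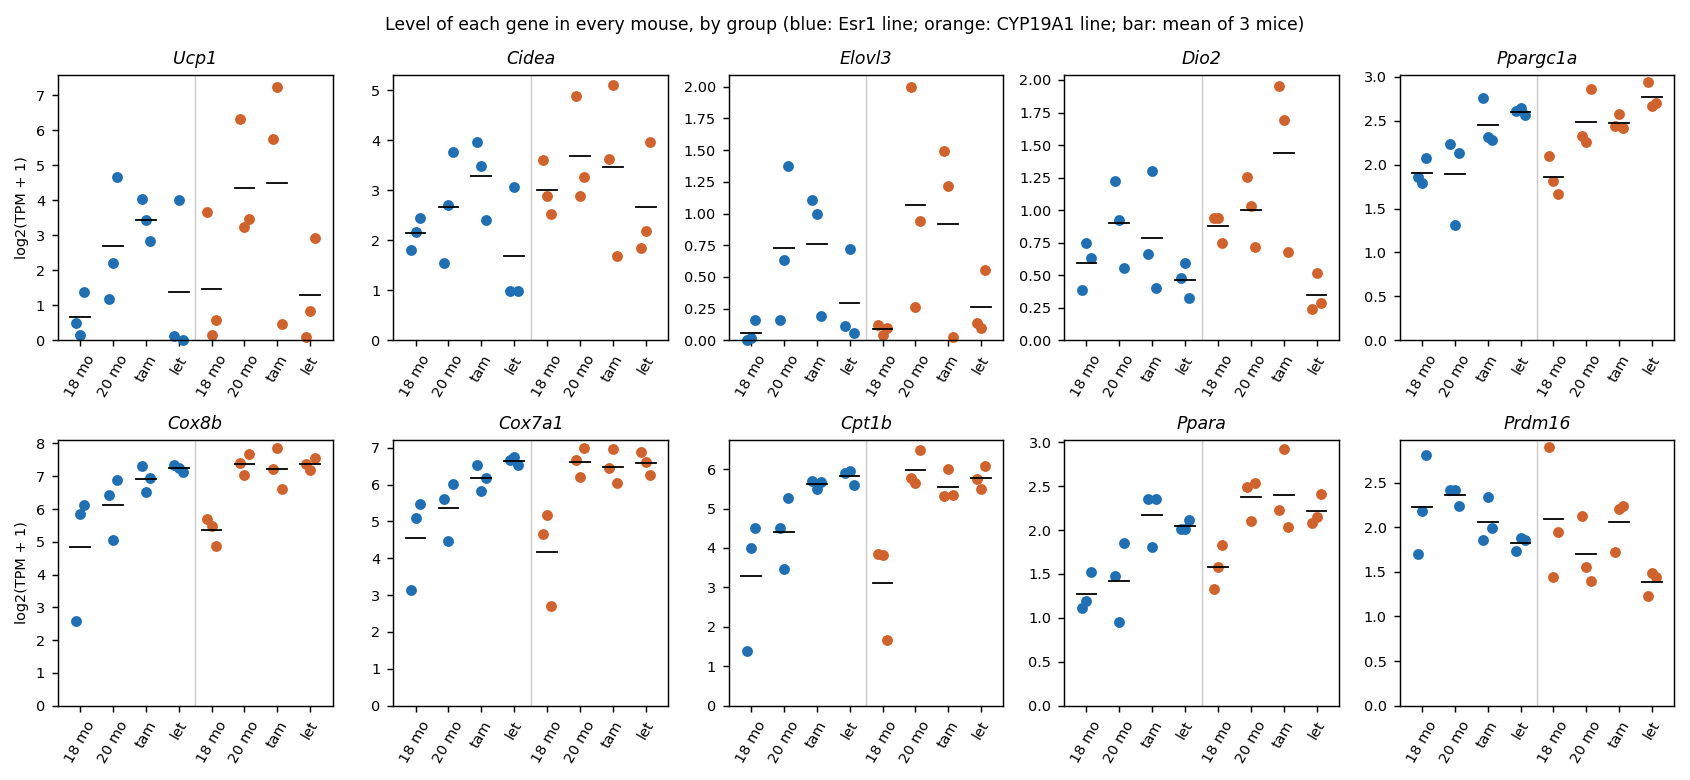
Level of each of the 10 genes as log2(TPM + 1) in every mouse, with the 8 groups along the x axis (tam: tamoxifen; let: letrozole) and the mean of 3 mice as a bar. Ucp1, Cidea and Elovl3 scatter within groups, while Cox8b, Cox7a1 and Cpt1b are low at 18 months and lie close together in the letrozole groups.

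Cidea and Elovl3 varied with Ucp1 from mouse to mouse. Cidea, a lipid droplet protein of brown fat that mammary epithelium also makes during milk secretion, ran from 0.97 to 33.4 TPM, and its highest library was that of Ucp1. Elovl3, which lengthens very long chain fatty acids, ran from 0 to 2.99 TPM and reached 1 TPM in 5 of 24 libraries. In the untreated CYP19A1 line at 20 months, replicate 1 was highest of its group for all 3 genes, at 79.5 TPM for Ucp1, 28.4 TPM for Cidea and 2.99 TPM for Elovl3. Over 24 libraries Pearson's r of log2(TPM + 1) was 0.89 between Ucp1 and Cidea, 0.88 between Ucp1 and Elovl3 and 0.80 between Cidea and Elovl3, as descriptions that mix groups and mice. The libraries differ in depth, which TPM does not keep. Cidea kept a floor where Ucp1 was near 0. In 2 libraries at 18 months with Ucp1 at 0.10 TPM, Cidea stood at 3.46 and 6.33 TPM, and Csn2, the milk protein beta-casein, at 7040 and 5296 TPM. In the 3 letrozole libraries with Ucp1 under 0.10 TPM, Cidea stood at 0.99, 0.97 and 2.59 TPM, and Csn2 at 11.2, 12.2 and 25.1 TPM. In the libraries with Ucp1 at 0.39, 0.40, 0.48 and 0.78 TPM, Cidea stood at 2.23, 2.51, 4.72 and 3.52 TPM. The mean log2(TPM + 1) of 6 milk protein genes was 5.12, 8.09, 5.79 and 4.43 there, in the same order. Cidea was thus not highest where the milk protein genes were. The part of milk-making cells in Cidea was not tested.

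The brown fat label was checked against 16 further brown and beige adipocyte genes. Of these, 4 stayed below 1 TPM in all 24 libraries: Zic1, a marker of classical brown fat, with at most 0.62 TPM, Tbx1 and Tmem26, markers of beige cells, with at most 0.45 and 0.46 TPM, and the hormone Fgf21 with at most 0.41 TPM. The other 12 were tested. Acot11, a thioesterase raised in brown fat by cold, ran from 0.94 to 9.64 TPM, and the proton channel Otop1 from 0.24 to 6.54 TPM, with both maxima in the mouse with the most Ucp1. By the measure of highest Pearson's r among tested genes over 24 libraries, the gene nearest to Ucp1 was Acot11 (r = 0.90), ahead of Cidea and Elovl3. Acot11 was also among the nearest to Cidea (r = 0.88) and to Elovl3 (r = 0.82).

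The starts of genes that moved together, or apart, are shown because members of the 2 sources can be compared letter by letter. Windows from a RefSeq table for GRCm38.p6 were used for 7 of the 10 genes, and each line gives the 250 bases before the gene's start, 5′ to 3′ on the gene's strand. The Ucp1 window is chr8:83290098-83290347 on the plus strand, Cox8b chr7:140900447-140900696 on the minus strand, and Cox7a1 chr7:30183921-30184170 on the plus strand. Capitals mark matches on either strand to 3 motifs: CANNTG, the E-box that muscle regulators bind, AGGTCA, the nuclear receptor core site, and TGACG, the core of the cAMP response element.
Ucp1: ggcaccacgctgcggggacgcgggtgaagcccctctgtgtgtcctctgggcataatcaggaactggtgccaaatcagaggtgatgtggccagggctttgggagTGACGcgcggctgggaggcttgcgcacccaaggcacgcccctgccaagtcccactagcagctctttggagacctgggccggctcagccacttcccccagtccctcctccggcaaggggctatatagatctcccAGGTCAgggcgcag
Cox8b: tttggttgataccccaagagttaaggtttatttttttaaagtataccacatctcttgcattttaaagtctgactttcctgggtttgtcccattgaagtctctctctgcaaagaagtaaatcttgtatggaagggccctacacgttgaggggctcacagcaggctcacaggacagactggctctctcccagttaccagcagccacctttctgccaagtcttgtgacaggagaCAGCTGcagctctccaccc
Cox7a1: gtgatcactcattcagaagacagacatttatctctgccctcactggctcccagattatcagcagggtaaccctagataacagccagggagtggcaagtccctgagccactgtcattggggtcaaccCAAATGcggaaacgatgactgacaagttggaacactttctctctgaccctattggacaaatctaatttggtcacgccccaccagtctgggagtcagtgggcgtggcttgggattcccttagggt
The Ucp1 window held 1 AGGTCA, starting 14 bases before the gene's start, and 1 TGACG, starting 147 bases before it, and no CANNTG. The Cox8b window held 1 CANNTG, read as CAGCTG, starting 19 bases before its start, and that of Cox7a1 held 1, read as CAAATG, starting 124 bases before its start. Over 32851 windows of the same length, 66.2% held CANNTG, 14% held AGGTCA and 17.8% held TGACG, so each match is common, and these are matches of letters only. No motif overlapped another in the windows shown. Of the windows not shown, that of Ppargc1a held 6 CANNTG and 1 TGACG, and that of Ppara 1 CANNTG and 1 TGACG. The Dio2 window held 2 TGACG and no CANNTG, and the Prdm16 window held none of the 3 motifs.

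Cox8b, Cox7a1 and Cpt1b varied with the muscle score. Cox8b ran from 4.97 to 229 TPM, Cox7a1 from 5.48 to 127 TPM and Cpt1b from 1.62 to 88.7 TPM. At 18 months Cpt1b was 1.62, 14.9 and 21.8 TPM in the Esr1 line and 13.5, 13.1 and 2.18 TPM in the CYP19A1 line, and its lowest value in each line was that of the muscle-poor library. With letrozole, where Ucp1 was at 0.09 and 0 TPM in 2 of 3 mice of the Esr1 line, Cpt1b stood at 59.0, 61.3 and 47.2 TPM and Cox7a1 at 101, 106 and 92.3 TPM. The mouse of that group with 15.2 TPM of Ucp1 had Cpt1b and Cox7a1 within a few TPM of the mouse with 0.09 TPM. Cox8b parted from the other 2 in the muscle-poor library of the CYP19A1 line, where it stood at 28.2 TPM beside 5.48 TPM of Cox7a1 and 2.18 TPM of Cpt1b. In the muscle-poor library of the Esr1 line it stood at 4.97 TPM.

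Against the skeletal muscle score over 24 libraries, Pearson's r was 0.94 for Cox7a1 (permutation p = 1e-05, the smallest that 100000 permutations can give; adjusted over 20 relations, 6.67e-05). It was 0.93 for Cpt1b (permutation p = 1e-05, adjusted 6.67e-05) and 0.85 for Cox8b (permutation p = 5e-05, adjusted 0.0002). Spearman's rho was 0.89, 0.90 and 0.86, each with a permutation p of 1e-05. Without the 2 muscle-poor libraries, which lie farthest from the median score, r was 0.92, 0.92 and 0.90. As deviations from the group means, r was 0.93, 0.92 and 0.76. Within groups the SD of the score was 3.27 (Esr1 line) and 3.68 (CYP19A1 line) at 18 months, and 0.048 to 0.916 in the others. These r values therefore rest mainly on the 18-month groups, which hold the muscle-poor libraries, and are not given without them. Ucp1, Cidea, Elovl3 and Dio2 had r of 0.30, 0.14, 0.32 and 0.07 with the same score, with rho of 0.11, 0.06, 0.34 and −0.33, and permutation p-values of r from 0.106 to 0.742. Leaving out the 2 libraries turned r of Cidea to −0.045 and of Dio2 to −0.19.

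**Figure D2:**
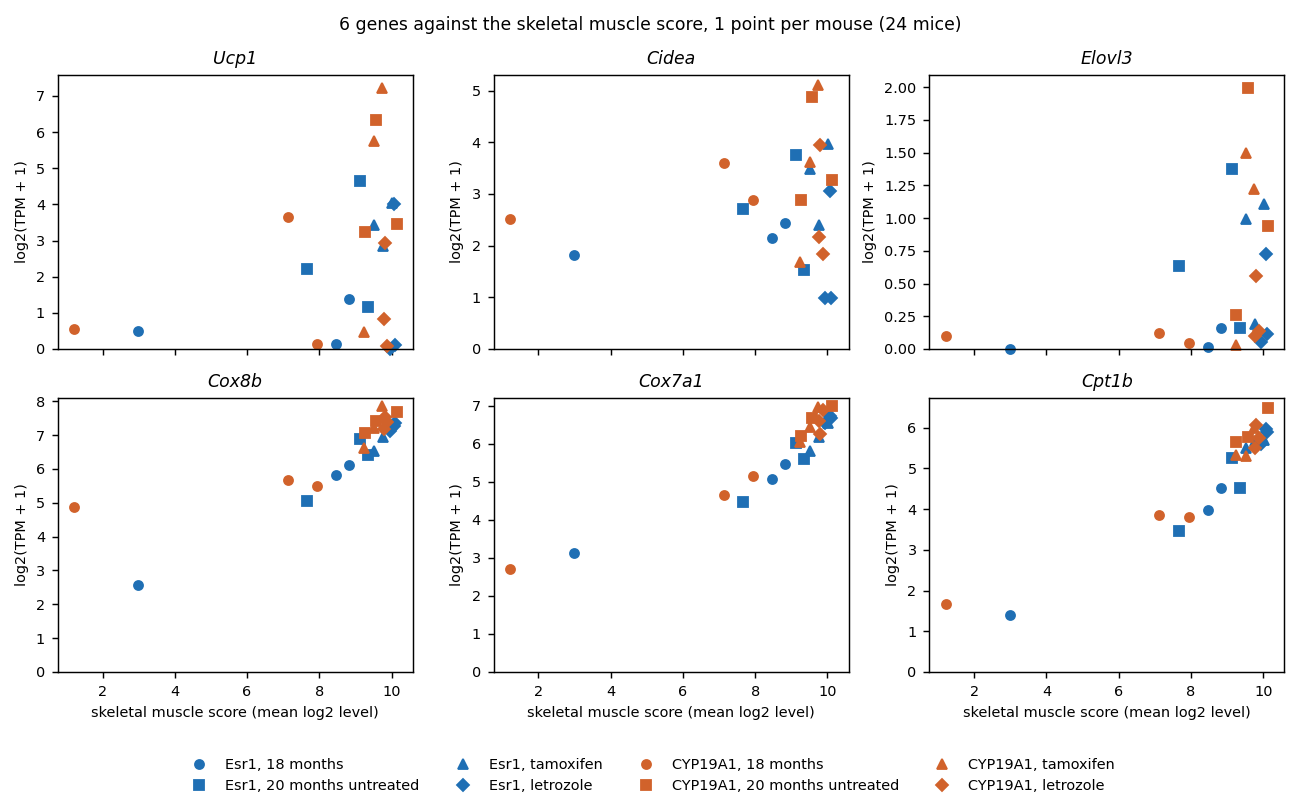
Level of 6 genes as log2(TPM + 1) against the skeletal muscle score of the same library, 1 point per mouse, colour for line and shape for condition. Cox8b, Cox7a1 and Cpt1b climb with the score (r = 0.85 to 0.94), whereas Ucp1, Cidea and Elovl3 spread over their whole range at high scores (r = 0.14 to 0.32). The 2 points at the left are the muscle-poor libraries.

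The score of the 16 further brown and beige genes gave another order. Pearson's r with it was 0.81 for Ppara (permutation p = 1e-05, rho 0.73), 0.73 for Ucp1 (permutation p = 5e-05, rho 0.71), 0.71 for Cidea (permutation p = 0.00011, rho 0.73) and 0.62 for Elovl3 (permutation p = 0.00112, rho 0.61). Adjusted over the 20 relations these p-values were 6.67e-05, 0.0002, 0.000367 and 0.0028, and without the 2 libraries farthest from the median score r was 0.68, 0.77, 0.75 and 0.74. Cox8b also passed with this score, at r of 0.59 (permutation p = 0.00366, adjusted 0.00813, rho 0.51), and so did Dio2, at 0.52 (permutation p = 0.00903, adjusted 0.0181, rho 0.40). For Cpt1b r was 0.49 (permutation p = 0.016, adjusted 0.0246, rho 0.46), for Ppargc1a 0.48 (permutation p = 0.0159, adjusted 0.0246, rho 0.37) and for Cox7a1 0.48 (permutation p = 0.0193, adjusted 0.0276, rho 0.39). Of these 5, rho passed for Cox8b and Cpt1b (adjusted permutation p = 0.0242 and 0.0485) and not for Dio2, Ppargc1a or Cox7a1 (0.0771 to 0.1). Without the 2 farthest libraries Cpt1b, Ppargc1a and Cox7a1 missed the threshold, with r of 0.44, 0.28 and 0.38 (adjusted permutation p = 0.0658, 0.28 and 0.12). As deviations from the group means r was 0.82 for Ppara, 0.69 for Ucp1, 0.65 for Cidea, 0.63 for Cox8b, 0.51 for Cpt1b and 0.51 for Cox7a1 (adjusted permutation p = 0.0032 to 0.0415). It was 0.61 for Elovl3, 0.54 for Ppargc1a and 0.29 for Dio2, which missed the threshold (adjusted permutation p = 0.116, 0.147 and 0.525). Prdm16 had r of −0.07. The 2 scores are not free of each other's tissue, since genes such as Plin5 and Ppargc1b are expressed in muscle too. The list was chosen with earlier results of these data known.

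**Figure D3:**
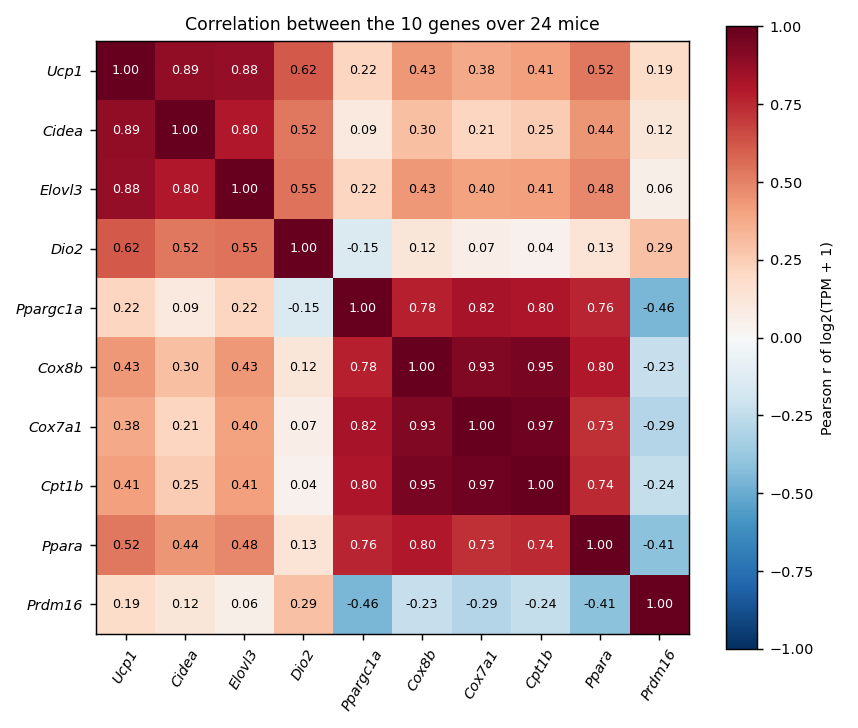
Pearson's r of log2(TPM + 1) between each pair of the 10 genes over 24 mice, red for positive and blue for negative. Ucp1, Cidea and Elovl3 form a block (r = 0.80 to 0.89) apart from Cox8b, Cox7a1 and Cpt1b (r = 0.93 to 0.97), and Ppargc1a and Ppara are nearer to the latter.

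The share of each isoform made in muscle and brown fat was computed within each library. Cox7a1 and its widely expressed partner Cox7a2 code for the same subunit position, as do Cox8b and Cox8a, and Cpt1b and Cpt1a catalyse the same step. In the CYP19A1 line Cox7a1 made up 12.7 ± 7.93% (SD, n = 3) of the Cox7a1 and Cox7a2 pair at 18 months and 41.4 ± 5.29% at 20 months untreated, 36.5 ± 5.53% with tamoxifen and 39.0 ± 3.77% with letrozole. In the Esr1 line it made up 19.1 ± 11.4% at 18 months, 29.5 ± 8.29% at 20 months untreated, 40.1 ± 4.50% with tamoxifen and 44.7 ± 1.09% with letrozole. The Cpt1b share of its pair was 37.3 ± 23.9% at 18 months, 79.4 ± 3.58% at 20 months untreated, 76.3 ± 7.53% with tamoxifen and 84.4 ± 4.29% with letrozole in the CYP19A1 line. In the Esr1 line it was 34.7 ± 25.5%, 59.7 ± 12.05%, 70.8 ± 8.66% and 76.6 ± 3.88% in the same order. The Cox8b share was 13.5 ± 4.31%, 49.7 ± 6.21%, 37.3 ± 8.08% and 49.8 ± 9.45% in the CYP19A1 line, and 17.8 ± 14.0%, 31.2 ± 11.9%, 42.0 ± 8.63% and 47.6 ± 2.27% in the Esr1 line. The mean of each of these 3 shares was lowest at 18 months in both lines. The means with either drug were above the untreated ones in the Esr1 line, and some above and some below them in the CYP19A1 line. These shares are descriptions and were not tested. Cox6a2, a subunit made in muscle that is not among the 10, made up 0.0628% of its pair with Cox6a1 in the muscle-poor CYP19A1 library, where Cox8b kept 8.69%, Cpt1b 10.6% and Cox7a1 3.75%. In the muscle-poor Esr1 library the shares were 0.801% for Cox6a2, 1.71% for Cox8b, 7.27% for Cpt1b and 6.12% for Cox7a1.

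**Figure D4:**
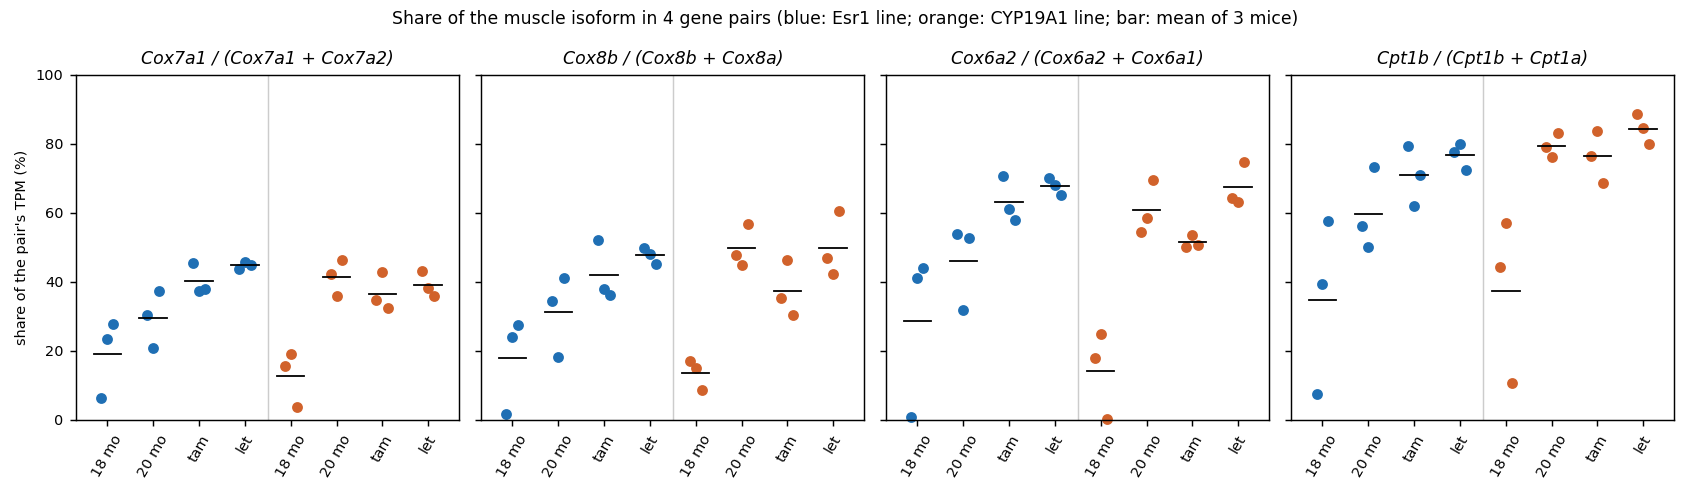
Share of the isoform made in muscle, in percent of the TPM of its pair, in every mouse by group, with the mean of 3 mice as a bar. All 4 shares are lowest in the muscle-poor library of each 18-month group, and Cpt1b exceeds 70% of its pair in every letrozole mouse.

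The genes nearest to these 3 by Pearson's r over 24 libraries were Chchd10 (0.98), Itm2a (0.97) and Phospho1 (0.97) for Cox8b, and Hhatl, Aqp4 and Perm1 (0.98 each) for Cox7a1. For Cpt1b they were Klhl40 (0.99), Myf6 (0.99) and Myadml2 (0.98), where Myf6 is a muscle regulatory factor and Klhl40 a thin filament protein of muscle. Ppargc1a, a coactivator that raises mitochondrial genes, had Pdp1 (0.95) and Ndufs7 (0.93) among its nearest. Ppara, the receptor that fatty acids activate, had Uqcrfs1 (0.94) and Ndufv1 (0.92) among its nearest, which code for respiratory chain proteins. Prdm16, a factor that directs brown fat fate, was nearest to Bcl11b (0.84), and Dio2, the deiodinase that activates thyroid hormone, to Ighv2-2 (0.74). These r values are descriptions over libraries that differ in tissue makeup.

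Ppargc1a and Ppara moved over a narrow range. Ppargc1a ran from 1.48 to 6.70 TPM and Ppara from 0.93 to 6.62 TPM, and both minima fell in the library with 31.2% ribosomal RNA. Against the muscle score Ppargc1a had r of 0.66 (permutation p = 0.00057, adjusted 0.00163, rho 0.91) and 0.83 without the 2 muscle-poor libraries, where it stood at 2.62 and 2.18 TPM. As deviations from the group means its r was 0.38 and did not pass (adjusted permutation p = 0.116). Ppara had r of 0.50 with that score (permutation p = 0.011, adjusted 0.02, rho 0.70) and 0.78 without the 2 muscle-poor libraries (adjusted permutation p = 6.67e-05), but 0.085 as deviations from the group means. Prdm16 ran from 1.34 to 6.46 TPM with no such rise (r = −0.11, permutation p = 0.612, rho −0.44), and without the 2 muscle-poor libraries its r was −0.54 (permutation p = 0.00993, adjusted 0.0199). Dio2 ran from 0.18 to 2.88 TPM and reached 1 TPM in 6 libraries.

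From 18 to 20 months the CYP19A1 line gained Cpt1b, Cox7a1 and Ppara. Of the 10 genes these 3 rose and none fell, where 9.45% of all tested genes passed in either direction and 3.01% rose (limma, adjusted p under 0.05). The median change of the 10 was 0.89 on the log2 scale, against −0.23 for all tested genes. Cpt1b went from 13.5, 13.1 and 2.18 TPM to 53.4, 49.0 and 88.7 TPM, a log2 difference of 2.85 ± 0.65 (SE, limma adjusted p = 0.018). Cox7a1 went from 24.3, 34.9 and 5.48 TPM to 101, 72.4 and 127 TPM (2.45 ± 0.58, adjusted p = 0.0198), and Ppara from 1.51, 1.99 and 2.55 TPM to 4.61, 3.29 and 4.80 TPM (0.80 ± 0.24, adjusted p = 0.0421). The 2 groups did not overlap for any of these. Here and below, overlap of ranges is a description of 3 mice against 3. The share of all tested genes without overlap is not given, so no excess among the 10 can be read from it. Cox8b, from 28.2 to 50.3 TPM at 18 months and from 132 to 206 TPM at 20 months, also did not overlap but missed the threshold (2.04 ± 0.65, adjusted p = 0.0534), as did Ppargc1a (0.62 ± 0.21, adjusted p = 0.0652) and Elovl3 (0.98 ± 0.40, adjusted p = 0.114). With only the 2 compared groups in the fit, the 3 calls were lost, with adjusted p of 0.0702 for Cpt1b, 0.0852 for Cox7a1 and 0.0649 for Ppara, and Cox8b passed (adjusted p = 0.0438). Ppara also missed the threshold with a pseudocount of 0.1 (adjusted p = 0.0539) or with no filter on low values (adjusted p = 0.0776). For Ucp1 the difference was 2.89 ± 1.50 (adjusted p = 0.207). Cidea and Dio2 had differences of 0.68 ± 0.82 and 0.12 ± 0.27, and Prdm16 of −0.40 ± 0.30 (adjusted p = 0.377 or more).

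Fibre genes moved with these 3. Of 18 skeletal muscle genes 4 rose in the same comparison (3.01% of all tested genes did), Mb, myoglobin, by 4.31 ± 1.11, Myh1 by 4.56 ± 1.31, Cacna1s by 3.29 ± 0.98 and Eno3 by 3.87 ± 1.15, and the muscle score was 1.21 to 7.95 at 18 months and 9.26 to 10.1 at 20 months. With the muscle score as a covariate, Cpt1b had a difference of 1.02 ± 0.32 (limma adjusted p = 0.0299) and Cox7a1 of 0.80 ± 0.28 (adjusted p = 0.0496), while that of Ppara was 0.74 ± 0.30 and no longer passed (adjusted p = 0.0801). The slope of this covariate rests mainly on the 18-month groups, where the score spread most within a group. No covariate fit without the muscle-poor libraries is given. This fit, like the others with this covariate, cannot tell a gain apart from muscle content. Leaving out both muscle-poor libraries gave 2.13 ± 0.37 for Cpt1b, 1.71 ± 0.37 for Cox7a1, 0.92 ± 0.27 for Ppara and 1.80 ± 0.41 for Cox8b, whose adjusted p was then 0.00689. All 18 skeletal muscle genes passed as higher in that fit, with 2.79 for Mb, 2.41 for Myh1, 2.08 for Cacna1s and 2.22 for Eno3. The share of all tested genes that rose in that fit is not given, so this count has no background beside it. Without replicate 3 of the CYP19A1 line at 20 months none of the 10 passed, with adjusted p of 0.124 for Cpt1b, 0.125 for Cox7a1 and 0.185 for Ppara. Without replicate 1 of that line at 18 months 1 of the 3 passed, Cpt1b (adjusted p = 0.0498), and Cox7a1 missed the threshold (adjusted p = 0.0576). Ppara missed it without replicate 1 or 2 at 18 months and without any 1 of the 3 mice at 20 months (adjusted p = 0.0570 to 0.191).

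All tested genes had a median change of −0.23 in this comparison, of −0.14 with age in the Esr1 line and of 0.16 between tamoxifen and letrozole in the CYP19A1 line. Scaling by median ratios, which brings the first to −0.02, gave log2 differences of 3.09 ± 0.59 for Cpt1b and 0.97 ± 0.23 for Ppara, and Cox7a1 passed with them (adjusted p = 0.00345). It also moved Cox8b (2.30 ± 0.58, limma adjusted p = 0.0159) and Ppargc1a (0.82 ± 0.19, adjusted p = 0.00936) past the threshold. Under this scaling 1408 of 1794 called genes were higher, against 581 of 1827 as deposited.

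In the Esr1 line over the same 2 months none of the 10 passed the adjusted threshold, where 0.00517% of all tested genes did (limma). None had an unadjusted p under 0.05 either. Here and below, shares of all genes are at the adjusted threshold, and none is given for an unadjusted p. Cox8b went from 4.97, 56.0 and 68.3 TPM to 85.0, 32.0 and 116 TPM (1.27 ± 0.65, adjusted p = 0.730), and Ucp1 differed by 2.01 ± 1.50 (adjusted p = 0.748). Groups overlapped for all 10. Single libraries moved this: Cox8b differed by 0.14 ± 0.41 without both muscle-poor libraries and by 1.81 ± 0.69 without the untreated library of high ribosomal RNA, where Ppargc1a turned from −0.02 to 0.27 ± 0.18, and none of the 10 passed either way. The difference between lines in the change with age did not pass for any of the 10 (0.00517% of all genes passed, and 1 of the 10 had an unadjusted p under 0.05). It was 1.73 ± 0.92 for Cpt1b (adjusted p = 0.621) and 0.64 ± 0.30 for Ppargc1a (adjusted p = 0.574), so a larger gain in the CYP19A1 line was not shown. Without the library of high ribosomal RNA it was 1.26 ± 0.94 for Cpt1b and 0.35 ± 0.25 for Ppargc1a.

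**Figure D5:**
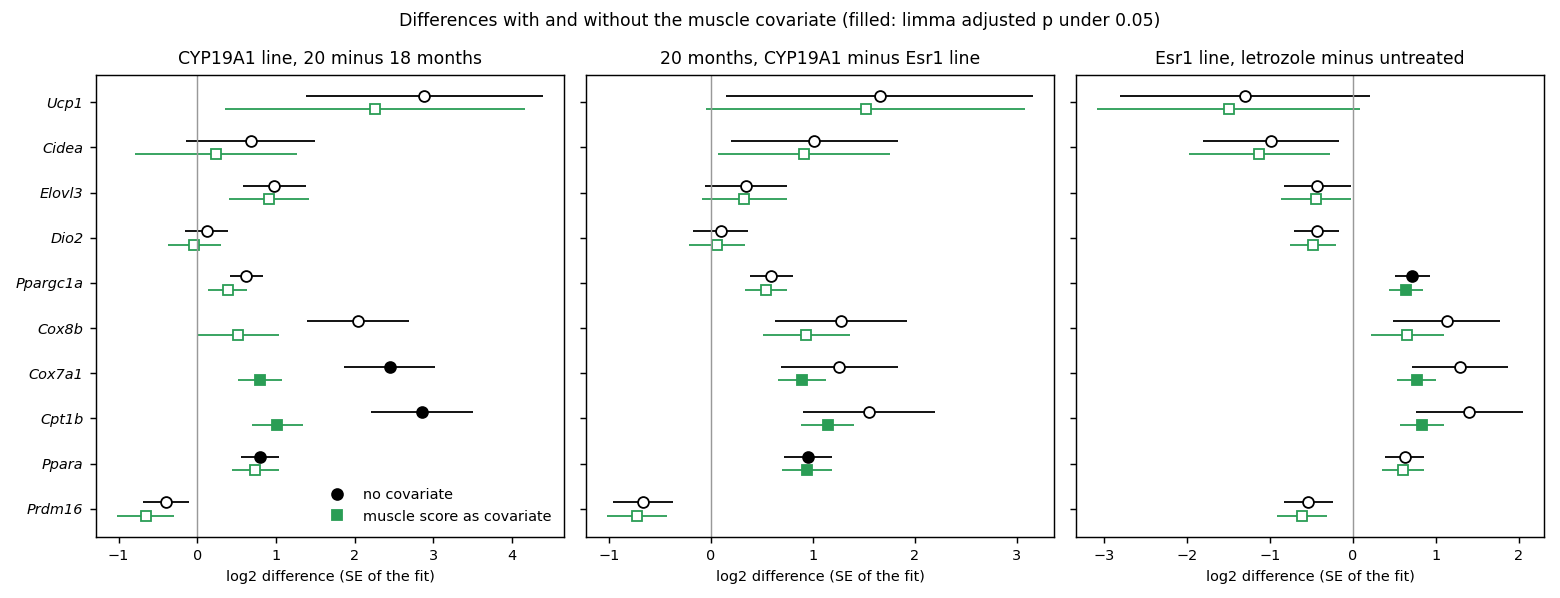
Log2 differences of the 10 genes in 3 comparisons, with the SE of the fit as bars, with no covariate (black) or fitted with the muscle score (green), filled where the limma adjusted p was under 0.05. With the covariate the age difference of Cpt1b in the CYP19A1 line shrinks from 2.85 to 1.02 and that of Cox7a1 from 2.45 to 0.80. The mean muscle score was 5.43 at 18 months and 9.65 at 20 months there. Between lines at 20 months it was 8.72 (Esr1) and 9.65 (CYP19A1), and the Ppara difference is 0.95 without the covariate and 0.94 with it. These fits cannot tell the differences apart from muscle content.

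Between the lines at 20 months without drug, Ppara was higher in the CYP19A1 line. Its values were 1.78, 0.93 and 2.60 TPM in the Esr1 line and 4.61, 3.29 and 4.80 TPM in the CYP19A1 line, with no overlap and a log2 difference of 0.95 ± 0.24 (limma adjusted p = 0.0256). It was the 1 gene of the 10 that passed, where 5.27% of all tested genes did in either direction and 2.12% upward, and the median of the 10 was 0.98 against 0.02 for all. Ppargc1a (0.59 ± 0.21, adjusted p = 0.106), Cpt1b (1.55 ± 0.65, adjusted p = 0.171), Cox7a1 (1.26 ± 0.58, adjusted p = 0.213) and Cox8b (1.27 ± 0.65, adjusted p = 0.265) also had no overlap, with the CYP19A1 line above. Prdm16 lay the other way, at 4.37, 4.35 and 3.73 TPM in the Esr1 line and 3.37, 1.95 and 1.64 TPM in the CYP19A1 line (−0.67 ± 0.30, adjusted p = 0.193). Ucp1 overlapped (1.66 ± 1.50, adjusted p = 0.564).

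The Ppara difference was 0.71 ± 0.24 without replicate 2 of the untreated Esr1 line, the library with high ribosomal RNA, and did not pass (adjusted p = 0.106). Without that library the difference was also 0.30 ± 0.18 for Ppargc1a and 0.74 ± 0.69 for Cox8b, 0.81 ± 0.62 for Cox7a1 and 1.08 ± 0.70 for Cpt1b. The Ppara call also missed the threshold without replicate 1 (adjusted p = 0.0840) or 3 (adjusted p = 0.128) of the CYP19A1 group. Without replicate 1 of the Esr1 group Ppargc1a passed beside it (0.76 ± 0.22, adjusted p = 0.0386), as it did under median ratio scaling (0.61 ± 0.19, adjusted p = 0.0385). With the muscle score as a covariate it was 0.94 ± 0.25 (adjusted p = 0.0198), and Cpt1b (1.14 ± 0.26, adjusted p = 0.00984) and Cox7a1 (0.89 ± 0.23, adjusted p = 0.0194) passed beside it. With the brown and beige score as a covariate the Ppara difference was 0.36 ± 0.19 (adjusted p = 0.333), and with the white adipocyte score 0.84 ± 0.26 (adjusted p = 0.0852).

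At 18 months no gene of the 10 passed between lines and none had an unadjusted p under 0.05, where 1.36% of all genes passed (limma). Cidea had no overlap there, at 2.51, 3.46 and 4.45 TPM in the Esr1 line and 11.1, 6.33 and 4.72 TPM in the CYP19A1 line (0.86 ± 0.82, adjusted p = 0.964). With tamoxifen none passed (1.01% of all genes did), and 1 had an unadjusted p under 0.05, Dio2, at 0.58, 1.47 and 0.32 TPM against 2.88, 2.23 and 0.60 TPM (0.65 ± 0.27, adjusted p = 0.496). With letrozole none passed either (0.906% of all genes), and none had an unadjusted p under 0.05. Averaged over the 4 conditions Ppara was higher in the CYP19A1 line by 0.41 ± 0.12 (limma adjusted p = 0.0392), 1 of the 10 where 7.27% of all genes passed in either direction and 3.96% were higher. This call was lost without both muscle-poor libraries (0.36 ± 0.13, adjusted p = 0.107). Leaving out 1 library ended it for replicates 1 and 2 of the Esr1 line and 2 and 3 of the CYP19A1 line at 18 months, replicate 2 of the Esr1 line and 1 and 3 of the CYP19A1 line at 20 months untreated, replicate 2 of either tamoxifen group, every Esr1 letrozole mouse, and replicates 2 and 3 of the CYP19A1 letrozole group (adjusted p = 0.0540 to 0.0802). Without replicate 1 of the CYP19A1 line at 18 months Prdm16 passed as lower (−0.41 ± 0.12, adjusted p = 0.0488), beside Ppara. With the brown and beige score as a covariate the averaged Ppara difference was 0.05 ± 0.11 (adjusted p = 0.797).

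In the Esr1 line Ppargc1a rose with letrozole. It stood at 3.71, 1.48 and 3.37 TPM untreated and at 5.12, 5.24 and 4.90 TPM with letrozole, with no overlap (0.71 ± 0.21, limma adjusted p = 0.0409). It was 1 of 10, where 8.65% of all tested genes passed and 2.85% rose, and the median of the 10 was 0.10 against −0.01 for all. The SD of Ppargc1a with letrozole, 0.172 TPM, was small beside 1.20 TPM in the untreated group. Cox7a1 (1.29 ± 0.58, adjusted p = 0.167), Cpt1b (1.40 ± 0.65, adjusted p = 0.180), Cox8b (1.13 ± 0.65, adjusted p = 0.283) and Ppara (0.62 ± 0.24, adjusted p = 0.104) had no overlap either, with letrozole above. Without the library of high ribosomal RNA these 4 differed by 0.84 ± 0.62, 0.93 ± 0.70, 0.60 ± 0.69 and 0.39 ± 0.24. Prdm16 was below, at 2.34, 2.68 and 2.63 TPM (−0.54 ± 0.30, adjusted p = 0.263). Ucp1 (−1.30 ± 1.50) and Cidea (−0.99 ± 0.82) had adjusted p of 0.629 and 0.480. Markers of epithelium fell in the same comparison, 5 of 8, and milk protein genes, 6 of 6. Without replicate 2 of the untreated group 3 of these 5 (Krt8, Cdh1 and Elf5) and 1 of these 6 (Csn1s1) still passed. In these groups the muscle score was 9.95 to 10.1 with letrozole and 7.67 to 9.35 untreated. The part of tissue makeup in the Ppargc1a change was not tested beyond the covariate fits.

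The Ppargc1a call was lost without replicate 2 of the untreated group, the library with high ribosomal RNA (0.42 ± 0.18, adjusted p = 0.160), and without any 1 of the letrozole mice (adjusted p = 0.0884 to 0.129). With the muscle score as a covariate it was 0.64 ± 0.21 (limma adjusted p = 0.0411), and Cox7a1 (0.77 ± 0.24, adjusted p = 0.0327) and Cpt1b (0.83 ± 0.27, adjusted p = 0.0411) also passed. With the white adipocyte score as a covariate it was 0.51 ± 0.23 and did not pass (adjusted p = 0.299). Under median ratio scaling 1895 of 4192 called genes were higher, against 550 of 1672 as deposited.

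Letrozole in the CYP19A1 line moved none of the 10 past the threshold, where 0.0207% of all genes passed (limma), and 1 had an unadjusted p under 0.05. That was Dio2, at 1.38, 1.04 and 0.64 TPM untreated and 0.18, 0.43 and 0.22 TPM with letrozole, with no overlap (−0.65 ± 0.27, adjusted p = 1). Ucp1 had no overlap either, its untreated mice at 8.36 TPM or more and its letrozole mice at 6.65 TPM or less (−3.05 ± 1.50, adjusted p = 1). Cpt1b, with a difference of −0.19 ± 0.65, and Cox7a1, with −0.04 ± 0.58, overlapped between these groups. None of the 10 passed for a difference between lines in the effect of letrozole (no tested gene did, and 1 of the 10, Ppara, had an unadjusted p under 0.05), with −0.79 ± 0.34 for Ppara (adjusted p = 0.386) and −0.42 ± 0.30 for Ppargc1a (adjusted p = 0.584).

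Tamoxifen moved none of the 10 past the threshold in either line. In the Esr1 line 1.55% of all genes passed (limma), and 2 of the 10 had an unadjusted p under 0.05. Ppara was at 4.11, 2.51 and 4.13 TPM with the drug and overlapped the untreated mice (0.75 ± 0.24, adjusted p = 0.104). Ppargc1a was at 5.78, 3.98 and 3.85 TPM, all above them (0.56 ± 0.21, adjusted p = 0.164). Under median ratio scaling Ppara passed (0.75 ± 0.23, adjusted p = 0.0442). Without replicate 2 of the untreated group, the library with high ribosomal RNA, the difference was 0.27 ± 0.18 for Ppargc1a (adjusted p = 0.486) and 0.51 ± 0.24 for Ppara (adjusted p = 0.308). Cpt1b, at 51.2, 44.2 and 50.5 TPM against 21.8, 10.1 and 37.3 TPM untreated, had no overlap but a difference of 1.21 ± 0.65 (adjusted p = 0.332), and of 0.74 ± 0.70 without that library. In the CYP19A1 line 0.16% of all genes passed, and none of the 10 had an unadjusted p under 0.05. The difference between lines in the effect of tamoxifen was −0.73 ± 0.34 for Ppara (adjusted p = 0.461), the 1 gene of the 10 with an unadjusted p under 0.05, where no tested gene passed. Without the library of high ribosomal RNA it was −0.49 ± 0.32, and the difference between lines in the effect of letrozole on Ppara was −0.55 ± 0.32.

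Tamoxifen against letrozole gave no call among the 10 in the Esr1 line (0.129% of all genes passed, limma, and none of the 10 had an unadjusted p under 0.05) or in the CYP19A1 line (0.248%). In the latter 3 of the 10 had an unadjusted p under 0.05, a level at which the share of all genes is not given. Dio2 was at 2.88, 2.23 and 0.60 TPM with tamoxifen and 0.18, 0.43 and 0.22 TPM with letrozole (1.09 ± 0.27, adjusted p = 0.124), Prdm16 at 2.30, 3.62 and 3.71 TPM against 1.34, 1.81 and 1.72 TPM (0.67 ± 0.30, adjusted p = 0.470), and Ucp1 differed by 3.20 ± 1.50 (adjusted p = 0.490). Dio2 and Prdm16 had no overlap. Without replicate 3 of the tamoxifen group, whose Ucp1 was 0.39 TPM beside 52.9 and 149 TPM in the other mice, Dio2 passed (1.48 ± 0.24, adjusted p = 0.00752).

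Other genes of fatty acid oxidation gave a call in 3 comparisons. Of 24 fat oxidation genes, 4 were higher and none lower in the CYP19A1 line at 20 months untreated: Slc25a20, the carnitine carrier, by 0.80 ± 0.19, Hadhb, of the trifunctional protein, by 0.79 ± 0.22, Acadvl, the very long chain dehydrogenase, by 0.71 ± 0.20, and Eci1, an isomerase, by 0.61 ± 0.16 (limma adjusted p = 0.0199 to 0.0427). Of all tested genes 2.12% were higher in this comparison. All 4 had their lowest level of 24 libraries in replicate 2 of the untreated Esr1 line, the library with 31.2% ribosomal RNA and the highest Csn2. Which of its features goes with the low levels was not tested. Without it none of the 4 passed, with differences of 0.59 ± 0.19 for Slc25a20, 0.47 ± 0.19 for Hadhb, 0.51 ± 0.19 for Acadvl and 0.44 ± 0.14 for Eci1 (adjusted p = 0.0837 to 0.158). The median of the 24 was 0.59 against 0.02 for all genes. With age in the CYP19A1 line 0 of 24 passed. With letrozole in the Esr1 line Eci1 and Slc25a20 rose by 0.62 ± 0.16 and 0.65 ± 0.19, and Ehhadh, a peroxisomal enzyme, fell by 0.87 on the log2 scale, where 8.65% of all genes passed and 2.85% rose. None of these 3 passed without that library (adjusted p = 0.0732 to 0.150). Acadvl was higher in the CYP19A1 line averaged over conditions (0.38 ± 0.10), where 7.27% of all genes passed. It kept this call without that library (0.33 ± 0.09, adjusted p = 0.0243) and lost it without both muscle-poor libraries (0.35 ± 0.11, adjusted p = 0.0528). No other comparison had a call among the 24.

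Of the 16 further brown and beige genes, 12 tested, 4 were higher in the CYP19A1 line averaged over the 4 conditions, where 3.96% of all tested genes were. These were Slc36a2, an amino acid carrier of adipocytes, by 0.79 ± 0.16, Kcnk3, a potassium channel, by 0.67 ± 0.13, Plin5, a lipid droplet protein, by 0.56 ± 0.16, and P2rx5, a purine receptor, by 0.43 ± 0.10 (limma adjusted p = 0.00258 to 0.0299). Of 12 white adipocyte genes 2 were higher in the same comparison, Cfd by 1.19 ± 0.22 and Retn by 0.80 ± 0.22. Plin5 missed the threshold without replicate 2 of the untreated Esr1 line (adjusted p = 0.0526) or without both muscle-poor libraries (adjusted p = 0.0868), and Retn without the latter (adjusted p = 0.0671). At 20 months untreated 2.12% of all tested genes were higher in the CYP19A1 line. Among them were Plin5, by 1.39 ± 0.31, and Lhx8, by 1.19 ± 0.33. Both had their lowest level in replicate 2 of the untreated Esr1 line, and without it they differed by 1.19 ± 0.34 and 0.85 ± 0.33 and did not pass (adjusted p = 0.0631 and 0.156). Plin5 also rose with age in the CYP19A1 line by 1.09 ± 0.31, where 3.01% of all tested genes did. Gk, glycerol kinase, fell with letrozole in the Esr1 line, by 1.22 on the log2 scale, where 8.65% of all tested genes passed. Without replicate 2 of the untreated Esr1 line Gk did not pass (limma adjusted p = 0.0825). Ucp1, Cidea and Elovl3, the genes most used to mark brown fat, passed in no comparison.

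Of 22 close relatives of the 10 genes, 19 tested, 4 passed in some comparison. Between lines 1 passed at 20 months untreated and 2 averaged over conditions, where 5.27% and 7.27% of all tested genes did. With age in the CYP19A1 line 1 passed, and 1 with letrozole in the Esr1 line, where 9.45% and 8.65% of all genes did. Cox7a2 was higher in the CYP19A1 line at 20 months untreated (0.50 ± 0.14, limma adjusted p = 0.0431) and averaged over conditions (0.41 ± 0.07, adjusted p = 0.000666). Elovl5, an elongase of polyunsaturated fatty acids, was higher in the averaged comparison (0.35 ± 0.08, adjusted p = 0.00557), and Elovl1, an elongase of very long chains, fell with age in the CYP19A1 line by 0.71 on the log2 scale (adjusted p = 0.0423). Mecom, a relative of Prdm16, rose with letrozole in the Esr1 line by 0.73 ± 0.22 (adjusted p = 0.0460). Without replicate 2 of the untreated Esr1 line, Cox7a2 at 20 months (0.36 ± 0.13, adjusted p = 0.124) and Mecom (0.46 ± 0.21, adjusted p = 0.180) did not pass. Ucp2 stood at 24.1 to 142 TPM and Ucp3, a form made in muscle and brown fat, at 5.80 to 32.8 TPM, both detected in every library, unlike Ucp1. Cpt1a, the form of liver and most other tissues, stood at 6.79 to 27.05 TPM, and exceeded Cpt1b in 4 libraries, all at 18 months.

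A few markers of other cell types passed between the lines as well. Of all tested genes 5.27% passed between lines at 20 months untreated and 7.27% in the averaged comparison. At 20 months untreated, Elf5, a factor of milk-making cells, was lower in the CYP19A1 line by −2.22 ± 0.59, 1 of 8 epithelial genes, and so was Csn1s1, 1 of 6 milk protein genes (−4.09 ± 1.09; limma adjusted p = 0.0350 and 0.0363). In the averaged comparison Krt14 (−0.72 ± 0.17) and Krt5 (−0.69 ± 0.20), keratins of basal cells, and Glycam1 (−3.52 ± 0.99) were lower. Mc5r, 1 of 3 tested genes of sebaceous gland and hair follicle, was higher in both (0.61 ± 0.17 and 0.35 ± 0.08). Without replicate 2 of the untreated Esr1 line, Elf5, Csn1s1 and Mc5r at 20 months and Glycam1 averaged did not pass (adjusted p = 0.0618 to 0.126). Without both muscle-poor libraries, Krt5 and Glycam1 averaged did not (adjusted p = 0.0573 and 0.0576). Of 6 slow fibre genes Tnnt1 rose with age in the CYP19A1 line (3.23 ± 0.91, adjusted p = 0.0362), where 3.01% of all tested genes did. It did not pass without both muscle-poor libraries (2.47 ± 0.92, adjusted p = 0.0759). The part of these cells in the differences of the 10 genes was not tested beyond the score covariates.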

How the data were processed

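The authors deposited 1 table of TPM for 24 mammary gland libraries, with each column summing to 1000000. Per the labels, libraries were stranded total RNA libraries made after depletion of ribosomal RNA with random priming. Among tools, the submitters' processing notes list RSEM 1.3.1 and STAR 2.7.9a, with Trim Galore 0.6.5 and FastQC 0.11.9, and the mm10 build. What each did, the annotation and the strand setting were not given in the sources used here. Cpt1b, Elovl3, Dio2, Cidea and Prdm16 overlap other RefSeq genes, so their reads could be shared. TPM keeps no depth, so precision rests on the spread between 3 mice.

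The test was limma 3.58.1 under R 4.3.3 (trend and robust settings), run on log2(TPM + 1) of the 19325 genes that reached 1 TPM in 3 libraries or more. All 24 libraries and 8 groups entered 1 fit of 16 comparisons, with Benjamini-Hochberg adjustment over all tested genes within each and a threshold of 0.05. The log2 scale with a pseudocount of 1 understates changes of low genes such as Elovl3 and Dio2. Comparisons that share untreated libraries share their chance variation. Line differences are CYP19A1 minus Esr1. A score is the mean log2(TPM + 1) of a list's genes in the table. Correlations with scores used two-sided permutation tests (100000 permutations, 20 relations). Scripts were tested on simulated data.

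The 10 genes, the gene lists and the tests were chosen with earlier results of these data known. All 10 genes are named in the comparisons, list genes where they passed (up to 4 by smallest adjusted p), and for each of the 10 the nearest genes by correlation, without predicted genes; 2 of these nearest genes are not reported here. Same-numbered replicates are different animals. Deviations from group means of same-numbered libraries had a median r of −0.003 over 84 pairs, so the numbers were not used as pairs. The labels call replicates biological and name no batch. Alternatives were another pseudocount, no filter, median ratio scaling, rescaling without the 100 most abundant genes, a fit of the compared groups only, score covariates, a replicate block and leaving out each library. The white adipocyte covariate and the fits without both muscle-poor libraries, and of the other lists without the library of high ribosomal RNA, were added after the data were seen. Gene windows and starts are RefSeq's for GRCm38.p6.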

Additional observations from a re-analysis of the deposited data

How the results depend on the processing

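With 3 mice a group and no read depth, the fits could not resolve genes that vary as Ucp1 does, whose standard error was 1.50 on the log2 scale. Counts of the 10 genes called changed as follows. The share of all tested genes called under each alternative is not given beside them. No excess among the 10 can therefore be read from these counts. Median ratio scaling also raised the number of all genes called with letrozole in the Esr1 line, as given above. The line difference at 20 months untreated gave 1, and gave 2 under median ratio scaling or rescaling without the 100 most abundant genes, 3 with the muscle covariate, and 0 with the brown and beige covariate, the white adipocyte covariate or only the compared groups fitted. The averaged line difference gave 1, and 0 without a filter, with either adipocyte covariate, or without both muscle-poor libraries. Age in the CYP19A1 line gave 3, and 5 under either scaling, 4 with the white adipocyte covariate (Ppargc1a added) or without both muscle-poor libraries (Cox8b added), 2 with a pseudocount of 0.1, without a filter or with the muscle covariate (Ppara lost each time), and 1 (Cox8b) with only the compared groups fitted. Tamoxifen in the Esr1 line gave 0, and 1 (Ppara) under either scaling. Letrozole in the Esr1 line gave 1, and 2 under either scaling or the brown and beige covariate, 3 with the muscle covariate, and 0 without a filter, with only the compared groups fitted or with the white adipocyte covariate. Leaving out 1 library gave 0 to 2 for both line differences, 0 to 3 for age in the CYP19A1 line, 0 to 1 for letrozole in the Esr1 line, 0 to 1 for tamoxifen against letrozole in the CYP19A1 line, and 0 in the other comparisons.

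With a replicate block the counts were 3 for age in the CYP19A1 line, 1 for the line at 20 months, 1 averaged and 1 for letrozole in the Esr1 line, and no call changed. The labels' numbers mark different animals.

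Among correlations, leaving out the 2 farthest libraries turned Cidea and Dio2 with the muscle score to −0.045 and −0.19. It gave Prdm16 −0.54 with that score and lowered those of Ppargc1a, Cox7a1 and Cpt1b with the brown and beige score to 0.28, 0.38 and 0.44. As deviations from group means r was 0.38 for Ppargc1a, 0.085 for Ppara and 0.28 for Prdm16 with muscle. With the brown and beige score it was 0.61 for Elovl3, 0.29 for Dio2, 0.54 for Ppargc1a and 0.23 for Prdm16. The cause was not tested in any of these.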
